A study of Homo sapiens with 12 samples.

Results

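The 500 largest clusters of H3K27ac in BxPC3 cells, joined as super-enhancers usually are but ranked by size and not by signal, held 7.36 Mb of called bases. They were found by keeping the bases that both BxPC3 peak lists called, joining pieces at most 12.5 kb apart, and ranking the resulting 19404 clusters by covered bases, meaning the bases inside the pieces. The 500 were thus 2.58% of all clusters and held 15.9% of the bases called in both libraries. Their number, length and order come from the BxPC3 lists and are given as a description, with no test. The measurements that the choice did not use are those of SUIT2 and Panc327.

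The study profiled H3K27ac by ChIP-seq in 3 human pancreatic cancer cell lines, BxPC3, SUIT2 and Panc327, all untreated. BxPC3 was derived from a primary adenocarcinoma of the pancreas and SUIT2 from a metastasis, and both are established lines. Each line gave 2 H3K27ac libraries, numbered replicates 1 and 2, and 2 input libraries, for which no peak list was used here. The labels do not say that the replicates of a line were separate cultures, so every spread given here may be technical. The labels name no drug and no engineered change in any group, and each line is 1 source of cells, so a difference between lines is a difference between these cultures.

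H3K27ac is an acetyl mark on histone H3 that sits at active promoters and active enhancers. Enhancers are stretches of DNA that raise the transcription of genes, often from a distance, and long runs of closely spaced, strongly acetylated enhancers are called super-enhancers. In cancer and normal cells such runs are known to lie near genes that set the identity of the cell. Clusters here could also hold promoters, which were not removed, so they are super-enhancer-like by size only. Gene positions on the build of the peaks, hg19, were not used here. Clusters are therefore named by position and rank, the line's label could not be checked against marker genes, and no sequence is shown.

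The deposited lists held 34113 and 38335 peaks for BxPC3 replicates 1 and 2, 29983 and 31421 for SUIT2, and 27776 and 29139 for Panc327. They covered 48.7 and 54.6 Mb in BxPC3, 60.1 and 63.3 Mb in SUIT2, and 34.1 and 46.3 Mb in Panc327. Total read numbers are not in the lists. The median recovered pile-up at a summit was 69 and 83 reads in BxPC3, 98 and 96 in SUIT2, and 68 and 55 in Panc327. A summit pile-up rises with enrichment as well as with depth, so it does not give depth alone. In Panc327 replicates 1 and 2, the genome-wide background that fold and p imply was 1.46 and 2.85 reads. The highest fold there was 326 and 54.8. A base outside every peak of a list had no call at the authors' threshold, and may still have carried H3K27ac below it.

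A typical cluster was a loose chain of acetylated pieces and not a solid block. The 500 clusters held 3266 pieces, 9.71% of all pieces. A cluster had a median of 6 pieces, with a range of 1 to 22. Covered bases ran from 9965 to 50868 bp with a median of 12874 bp, and spans from 9982 to 106189 bp with a median of 34263 bp. Pieces filled a median of 40.7% of the span, and the longest piece of a cluster held a median of 36.7% of its covered bases. The median gap between pieces was 2892 bp. Pieces of these clusters had a median length of 1608 bp, against 1016 bp over all pieces, and 317 of the 626 pieces of at least 5 kb lay in them. At the lower edge, the last 2 clusters inside covered 9976 and 9965 bp, and the first 2 outside covered 9906 and 9891 bp.

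**Figure D1:**
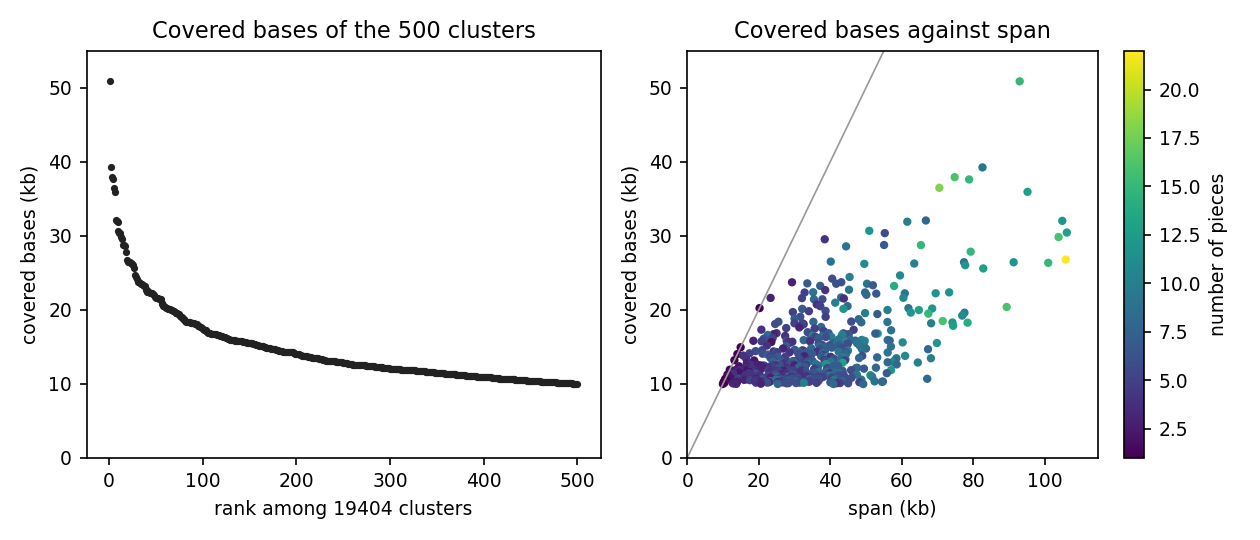
Covered bases in kb of the 500 BxPC3 clusters by rank (left), and covered bases against span in kb, with 1 point per cluster coloured by its number of pieces and a line where both are equal (right). The first cluster, at 50868 bp, stands above the second, at 39241 bp, the curve flattens towards 9965 bp, and the points lie far to the right of the line except for the 12 clusters of a single piece and a few others close to it.

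The largest cluster lay on chromosome 1 from 209516200 to 209609198. Its 15 pieces covered 50868 of 93.0 kb, and the longest were 8622 and 8572 bp. The strongest summits of BxPC3 replicates 1 and 2 stood at 209584759 and 209584760, with the authors' fold over background at 69.0 and 80.6. This cluster had no called base in SUIT2 replicate 1 or 2, and the nearest base called in both SUIT2 libraries was 213 kb away. Panc327 called 24.7% of its bases in replicate 1 and 86.6% in replicate 2. Panc327 replicate 2 followed most BxPC3 pieces, whereas replicate 1 had short calls inside them, so how much of this cluster Panc327 shares depended on the library. The local Panc327 background at this cluster, as the deposited fold and p imply it, was 2.716 and 2.647 times the genome-wide level. The part of that background in the sharing was not tested.

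The next clusters showed nearly every combination. The second, on chromosome 22 from 46402443 to 46485039, held the longest single piece of all, 24495 bp. SUIT2 called 98.4 and 98.9% of it, and Panc327 45.9 and 42.2%. The third, on chromosome 19 from 39126795 to 39201609, covered 37923 bp in 16 pieces and was shared widely: SUIT2 called 89.3 and 91.0% of it, and Panc327 72.4 and 89.4%. Its strongest summits had folds of 83.1 and 114 in BxPC3. The local Panc327 background there, as the deposited fold and p imply it, was 4.505 and 4.722 times the genome-wide level. The part of that background in the sharing was not tested.

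The fourth, on chromosome 1 from 95064449 to 95143301, covered 37614 bp and was hardly shared. SUIT2 called 8.26 and 7.30% of it, in pieces at its left end, and Panc327 called 2.61 and 21.4%, mostly in the piece with the strongest summit and in the longest piece. Rank 186 lay within 100 kb on its left, and over both together SUIT2 called 9.74% and Panc327 5.87% of the 51956 covered bases in both libraries.

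Ranks 5 to 15 were on chromosomes 1, 7, 9, 10, 12, 16, 19 and 20 and covered 36481 to 28758 bp. The cluster of rank 10, on chromosome 1 from 16465501 to 16516421, was the one most fully called in SUIT2 among the first 15, at 99.9 and 99.8%, against 52.3 and 49.3% in Panc327. Rank 12, on chromosome 7 from 116310762 to 116366020, had 72.3 and 72.4% of its bases called in SUIT2 and 6.12 and 24.6% in Panc327. By contrast, rank 11, on chromosome 19 from 45925231 to 46031419, was higher in Panc327, at 75.7 and 83.3%, than in SUIT2, at 57.8 and 63.0%.

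Of the other first 15, the cluster of rank 14 on chromosome 20 from 60924891 to 60963352 had the highest folds, 116 and 167, in only 4 pieces. SUIT2 called 84.1 and 85.0% of it, and Panc327 85.2 and 58.1%. The cluster of rank 13, also on chromosome 20, from 49031107 to 49134990, had its strongest summits 94573 bp apart in the 2 BxPC3 libraries, the widest such distance of the 500. SUIT2 called 42.8 and 45.8% of its bases, and Panc327 17.2 and 27.1%.

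**Figure D2:**
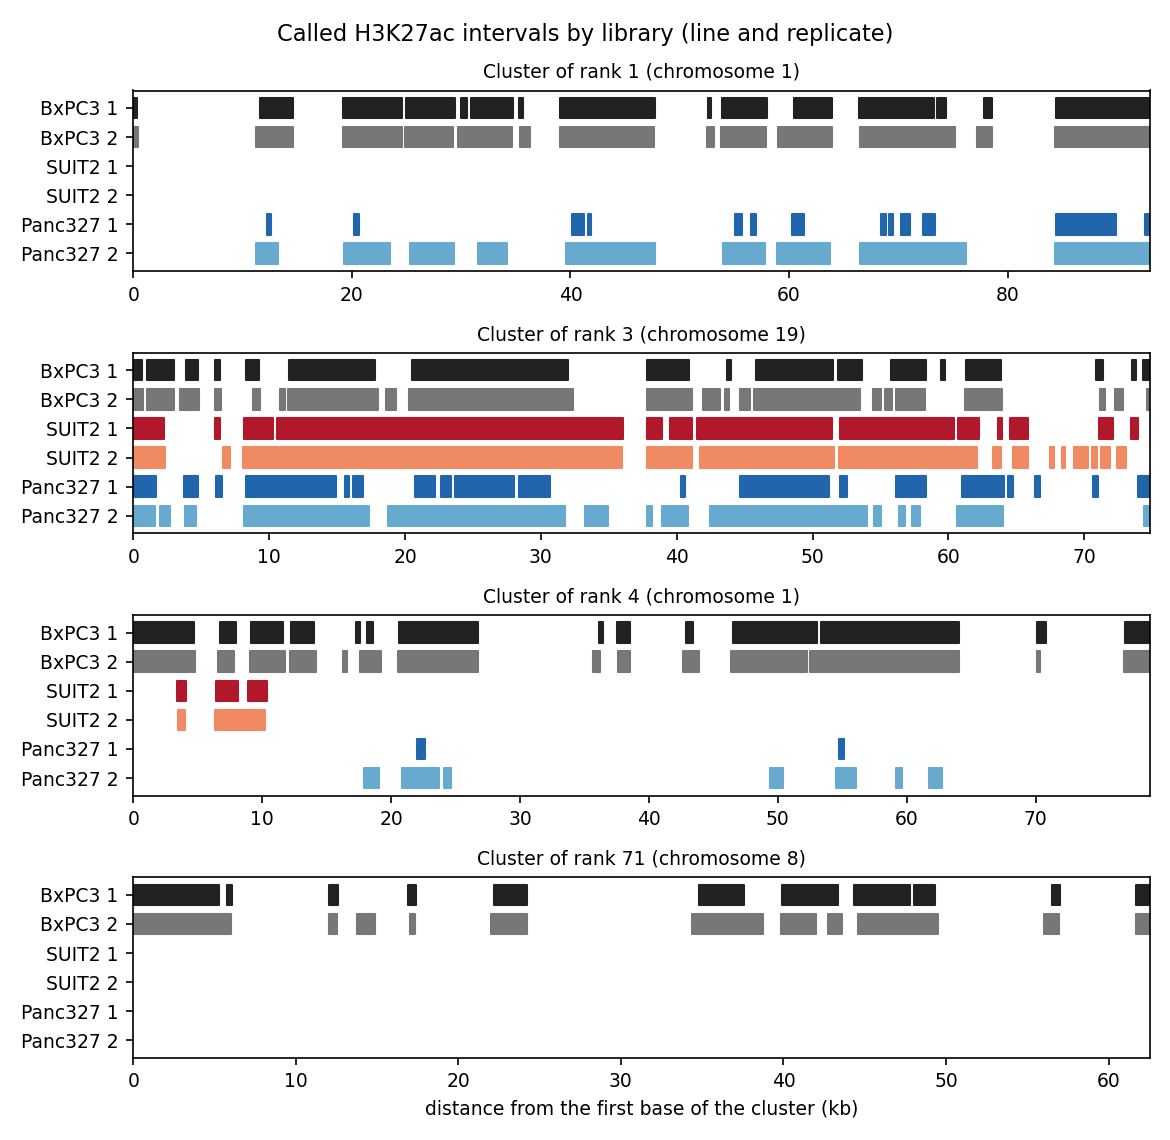
Called H3K27ac intervals of the 6 libraries (rows, by line and replicate) in 4 clusters, with distance in kb from the first base of the cluster on the x axis. The cluster of rank 1 has no SUIT2 call and dense calls in Panc327 replicate 2, that of rank 3 is called in all 6 libraries, that of rank 4 has only short calls outside BxPC3, and that of rank 71 has none.

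Ranking by covered bases favours wide peaks, so that wide peaks lie in the clusters follows from the choice, and is given as a description. Of the 100 widest BxPC3 peaks, 91 in each replicate had their summit in one of the 500, and of the 100 peaks of highest fold 30 in replicate 1 and 34 in replicate 2 did. The strongest peak of a cluster had a median fold of 52.4 in replicate 1 and 65.1 in replicate 2, against 20.6 and 23.9 in the other clusters. The choice of long clusters favours strong peaks, since more peaks per cluster give a higher maximum. Across the 500, covered bases and the highest fold were only weakly related (Spearman's rho 0.129 and 0.120 over 500 clusters of the same libraries, as a description).

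A median of 2 summits per cluster reached at least 50% of the highest fold in each replicate, the same as in the 6518 other clusters of at least 2 pieces, and up to 10 did. A single such summit was seen in 121 of the 500 in replicate 1 and in 129 in replicate 2, or 24.2 and 25.8%, against 40.04 and 43.9% of those 6518. The second highest fold was a median of 72.9 and 70.6% of the highest, against 60.6 and 58.9%. More summits per cluster leave more chances for a close second, so these values move with length by construction. Among the 488 clusters of more than 1 piece, the strongest summit lay in the longest piece in 271 by replicate 1 and in 273 by replicate 2, or 55.5 and 55.9%, against 73.9 and 74.4% of the 6518.

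The 2 BxPC3 libraries placed the strongest summit within 200 bp of each other in 293 of the 500 clusters, 58.6%, where the share over all 19404 clusters, most of them of 1 piece, was 82.2%. In 116 of the 500 the 2 strongest summits were over 10000 bp apart, so the libraries ranked different pieces first. Those 116 had a median of 7 pieces, and the 293 a median of 6. Inside the spans, both libraries called 88.9% of the bases that at least 1 of them called, against 92.7% in the other clusters. With replicate 1 alone, 488 of the 500 overlapped a top-500 cluster, and with replicate 2 alone 459 did.

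About 6 in 10 covered bases were also called in SUIT2, and between 46.3 and 61.3% in Panc327 depending on the library. SUIT2 replicate 1 called 60.2% and replicate 2 61.5% of the covered bases of the 500 clusters, against 65.3 and 66.2% of those of the other clusters. Panc327 replicates 1 and 2 called 46.3 and 61.3%, and averaged 53.8 ± 10.6% in the 500 and 55.04 ± 11.6% in the other clusters (SD, n = 2). For SUIT2 the averages were 60.8 ± 0.904% in the 500 and 65.7 ± 0.630% in the other clusters (SD, n = 2). Per base, the average share in the 500 was thus below that over all the other clusters for SUIT2 and near it for Panc327. For Panc327 the 2 averages differed by less than the spread between its libraries. For SUIT2 both libraries were lower in the 500, and since the same 2 libraries gave both averages, no test was made. For SUIT2 the direction depended on the ranking. When ranked by covered bases weighted by fold, the top 500 had 65.8% called in both SUIT2 libraries and 47.2% in both Panc327 libraries. Over all clusters these shares were 63.6 and 43.5%.

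Between the lines, SUIT2 minus Panc327 was 7.04 percentage points. An exact two-sided permutation test over the 4 libraries gave p = 0.667, and 2 libraries against 2 cannot go below 0.333. Panc327 replicate 2 lay between the SUIT2 libraries, and Panc327 replicate 1, the list that covered the fewest bases of the 6, lay below all 3. Without that library the difference was -0.435 percentage points. Breadth of calling and line cannot be told apart here.

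**Figure D3:**
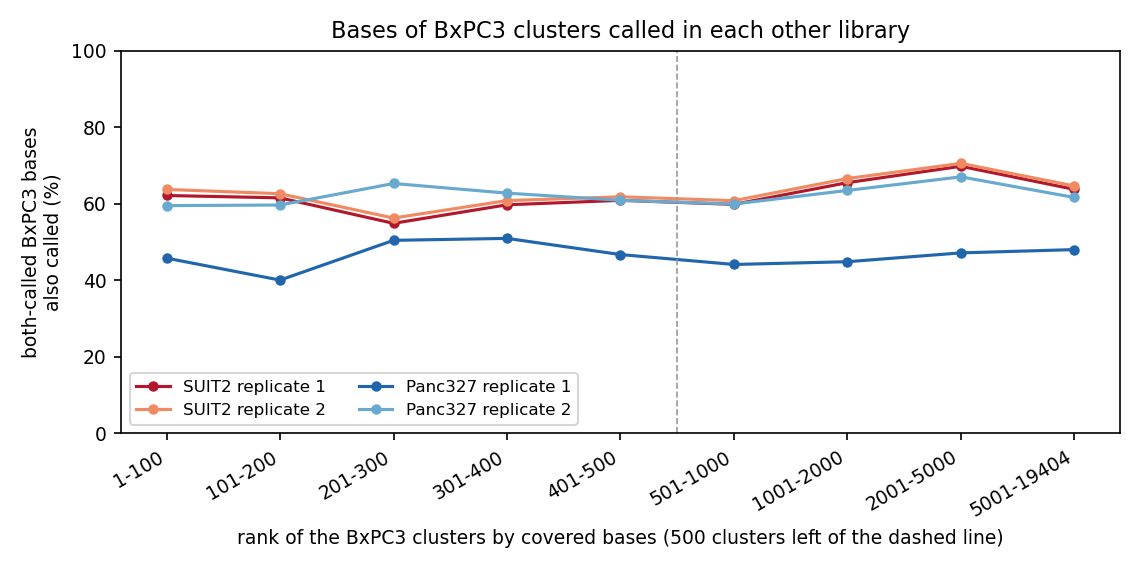
Share in percent of the both-called BxPC3 bases that each SUIT2 and Panc327 library also called, in bands of BxPC3 cluster rank, with the 500 clusters left of the dashed line. The SUIT2 libraries stay between 54.9 and 70.5% and run close together, while Panc327 replicate 1 lies below Panc327 replicate 2 in every band.

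Requiring both libraries of a line, SUIT2 called 59.3% and Panc327 42.0% of the covered bases, and 32.1% were called in all 4. In the other clusters the same shares were 64.5, 43.8 and 38.0%. Cluster by cluster, 317 of the 500, or 63.4%, had at least 50% of their bases called in both SUIT2 libraries, against 59.4% of all clusters. For Panc327 the count was 210, or 42.0%, against 43.2% of all clusters. Both counts lay near the background. Without Panc327 replicate 1, the Panc327 count was 352. At least 50% in both lines was seen in 172 clusters (34.4%, against 37.7% of all), in SUIT2 but not Panc327 in 145 (29.0%, against 21.7%), in Panc327 but not SUIT2 in 38 (7.6%, against 5.47%), and in neither in 145 (29.0%, against 35.1%).

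Large clusters were rarely empty in another line. No base was called in both SUIT2 libraries in 32 clusters, 6.4%, against 32.8% of all clusters, and none in both Panc327 libraries in 33, 6.6%, against 39.8%. Without Panc327 replicate 1 the Panc327 count was 15. A longer cluster has more bases that could be called, so these shares fall with length by construction.

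The 2 Panc327 libraries differed over most of the clusters. Replicate 2 called the larger share in 363 clusters, 72.6%, against 51.6% of all clusters, and the smaller in 123, 24.6%, against 14.5%. The median difference was 10.2 percentage points. Many short clusters were called in full or not at all by both libraries, so equal shares were commoner there. Replicate 2 was at least 50 points above replicate 1 in 44 clusters, 8.8%, near the 9.73% of all clusters. Replicate 1 was that far above replicate 2 in 0 of the 500, against 1.89% of all clusters, and the SUIT2 libraries differed by at least 25 points in 0, against 1.83%.

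**Figure D4:**
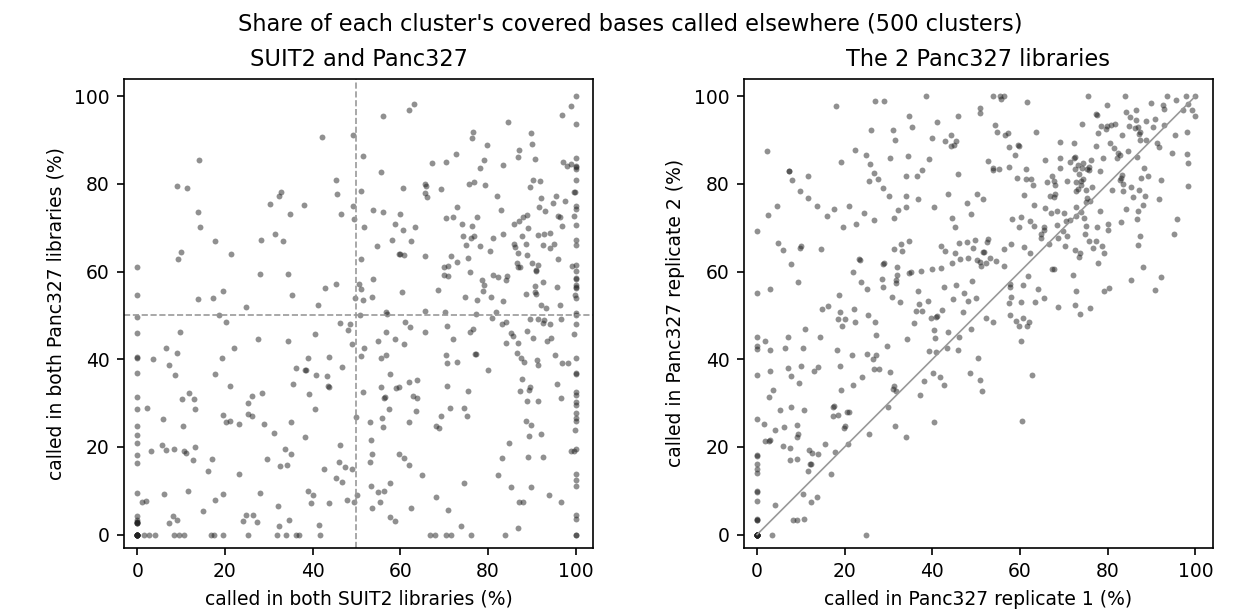
Share in percent of each cluster's covered bases called in both SUIT2 libraries against both Panc327 libraries, with dashed lines at 50% (left), and called in Panc327 replicate 1 against replicate 2 with the line of equal shares (right), 1 point per cluster. On the left, 172 clusters lie at or above 50% on both axes and 145 below it on both, and on the right 363 clusters lie above the line.

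In 10 of the 500 clusters, 2.0%, no base was called in both libraries of SUIT2 and none in both of Panc327, against 26.2% of all clusters. Without Panc327 replicate 1 the count was 5. The largest of these was the cluster of rank 31, on chromosome 12 from 76076993 to 76120083. It covered 23725 bp in 6 pieces, with its strongest summits at 76094030 and 76094089, where 152 and 257 reads were recovered. SUIT2 called none of it, and Panc327 called 13.9% in replicate 2 only.

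A pair of neighbours on chromosome 8 were also among the 10. The cluster of rank 71 ran from 32081236 to 32143767 with 19624 bp in 12 pieces, and that of rank 134 from 32160606 to 32193172 with 15903 bp in 8 pieces. Apart from 3.53% of the bases of rank 134 in SUIT2 replicate 2, no other library called them. The nearest base called in both SUIT2 libraries was 582 kb from rank 71 and 533 kb from rank 134, and the nearest in both Panc327 libraries 262 and 213 kb.

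In 4 clusters, 0.8%, none of the 4 other libraries called a single base, against 19.6% of all clusters. They were rank 71, rank 278 on chromosome 5 from 36441816 to 36463331, rank 330 on chromosome 3 from 118245524 to 118268246, and rank 409 on chromosome 13 from 78081393 to 78112542. Rank 330 had its strongest summits 12 bp apart in the BxPC3 libraries, with folds of 48.6 and 47.4. The nearest base called in both SUIT2 libraries was 626 kb away, and the nearest in both Panc327 libraries 365 kb. For rank 278, the local BxPC3 background that the deposited fold and p imply was 2.003 and 1.835 times the genome-wide level.

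A further 4 of the 10 were called in part by Panc327 replicate 2. On chromosome 2 from 56064707 to 56090002, rank 212 had 69.3% of its bases called in Panc327 replicate 2 and none in replicate 1. On chromosome 5 from 52616850 to 52637643, rank 141 had 17.9% called in Panc327 replicate 2. On chromosome 18 from 20393652 to 20453908, rank 146 had 9.80%, and on chromosome 6 from 143645930 to 143660363, rank 417 had 3.58%. SUIT2 called none of these 4. Panc327 replicate 1 called none of them and none of rank 31, so the place of each among the 10 rests on that library.

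Some clusters were carried by 1 other line alone. In 2 clusters, 0.4%, against 3.47% of all clusters, no base was called in both SUIT2 libraries and at least 50% in both Panc327 libraries. Without Panc327 replicate 1 there were 15. The 2 were rank 261 on chromosome 11 from 119991583 to 120009401, with 58.1 and 71.9% in Panc327, and rank 329 on chromosome 11 from 1848084 to 1865700, with 88.0 and 61.0%. The opposite, none in both Panc327 libraries and at least 50% in both SUIT2 libraries, was seen in 8, 1.6%, against 10.9% of all clusters. Without Panc327 replicate 1 there were 3. The largest of the 8 was rank 43 on chromosome 13 from 73898292 to 73948043, with 84.2 and 84.0% in SUIT2 and 0 and 3.41% in Panc327.

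Rank 371, on chromosome 4 from 30718114 to 30729366, was a single piece of 11253 bp that SUIT2 called in full in both libraries. Panc327 called none of it, and its nearest base called in both libraries was 3855 kb away. Rank 396, on chromosome 2 from 188391493 to 188419621, had 76.1% called in each SUIT2 library and none in Panc327. Ranks 169 and 443, on chromosome 3 from 136637709 to 136680945 and on chromosome 15 from 101281150 to 101301011, had 71.5 and 76.5% and 69.2 and 70.9% called in SUIT2, against 18.2 and 14.95% in Panc327 replicate 2 only.

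At the other end stood clusters called throughout. Rank 314, on chromosome 7 from 5458551 to 5470453, was a single piece of 11903 bp that was called in full in all 4 other libraries. It was followed by rank 185 on chromosome 19 from 39880689 to 39904850, with 96.8% of its bases called in all 4, rank 168 on chromosome 5 from 180610955 to 180651435, with 94.1%, and rank 336 on chromosome 17 from 7737159 to 7761992, with 93.6%. The next 6, ranks 326, 455, 407, 142, 470 and 112, had between 83.8 and 86.2%. These 10 had 1 to 7 pieces, and none was among the first 100. Their local Panc327 background ran from 1.0 to 4.922 times the genome-wide level in replicate 1 and from 1.104 to 4.795 times in replicate 2. Rank 185 had the highest value in each, and the part of the background in the sharing was not tested.

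Single-piece clusters were as varied. The largest, rank 61 on chromosome 11 from 119554025 to 119574255, was 20231 bp long. SUIT2 called 2.31% of it in replicate 1 and none in replicate 2, and Panc327 called 57.7 and 56.6%. Rank 167, on chromosome 15 from 96868150 to 96883087, was called in full in both SUIT2 libraries and to 34.3 and 44.7% in Panc327. Rank 229, on chromosome 12 from 12867022 to 12880213, was called in full in SUIT2 and in Panc327 replicate 2, and to 56.4% in Panc327 replicate 1. Rank 202, on chromosome 9 from 101005649 to 101019676, had 35.1 and 40.7% in SUIT2 and 21.0 and 28.0% in Panc327.

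The cluster of most pieces, rank 19 on chromosome 17 from 8021826 to 8127702, had 22 in 106 kb, with the longest at 4332 bp. SUIT2 called 89.7 and 94.2% of its bases and Panc327 79.7 and 98.0%, and it overlapped the first-ranked cluster of Panc327. Rank 5, on chromosome 10 from 95172048 to 95242566, had 18 pieces, with 89.1 and 92.2% called in SUIT2 and 32.1 and 74.1% in Panc327. Rank 60, on chromosome 10 from 96979762 to 97069118, had 16 pieces, with 64.3 and 66.3% in SUIT2 and 31.1 and 92.4% in Panc327.

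Sharing was uneven inside clusters as well as between them. Of the 3266 pieces, 1373, or 42.0%, had a base called in both libraries of both other lines, 607 in SUIT2 alone, 410 in Panc327 alone and 876, or 26.8%, in neither. The median length was 757 bp for pieces of neither line and 2478 bp for pieces of both, and a longer piece has more bases that could be called. In 257 clusters at least 1 piece of both lines and at least 1 piece of neither occurred in the same cluster. These counts are not given here for the pieces of the other BxPC3 clusters. Whether the shares of pieces and the mixing are particular to the largest clusters is therefore not known. By bases, the piece with the strongest summit of BxPC3 replicate 1 was called to 67.8% in SUIT2 and 49.96% in Panc327, against 54.5 and 38.1% of the bases of the other pieces of the same clusters. In other clusters of at least 2 pieces the same values were 67.01 and 45.4%, against 46.3 and 29.6%.

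When the other lines were clustered by the same rule, 189 of the 500 BxPC3 clusters, 37.8%, overlapped a top-500 cluster of SUIT2, and 186 of the 500 SUIT2 clusters, 37.2%, overlapped one of BxPC3. For Panc327, 229 of the BxPC3 clusters, 45.8%, and 231 of the Panc327 clusters, 46.2%, did. Over all 19404 BxPC3 clusters the shares were 3.39 and 3.33%. Any overlap counted, only 500 clusters of each other line could be met, and a longer cluster has more bases that could meet one. These shares therefore differ with length by construction. The 500th cluster covered 13089 bp in SUIT2 and 6615 bp in Panc327. A top-500 cluster of both other lines was overlapped by 116 of the BxPC3 clusters, 23.2%, against 0.83% of all clusters, and of neither by 198, 39.6%, against 94.1%. Within the spans, SUIT2 called more bases than BxPC3 in 160 clusters, 32.0%, against 11.6% of all clusters, and Panc327 in 35, 7.0%, against 3.09%. A cluster of 1 piece has no bases outside its piece and cannot be counted here. Such clusters were 2.4% of the 500 and 63.9% of all clusters, so the shares over all clusters are low by construction.

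By chromosome, the 500 were most numerous on chromosomes 1, with 65, 19, with 44, 12, with 40, and 17, with 37. Chromosome 19 held 8.8% of the 500, against 4.29% of all clusters, and chromosome 4 held 2.0%, against 4.40%. Chromosome 19 clusters were the most widely shared, with 72.1% of their bases called in both SUIT2 libraries and 68.6% in both Panc327 libraries, where the 500 clusters on other chromosomes had 58.0 and 39.3%. The Panc327 background there, as a median over the clusters with Panc327 peaks, was 1.42 and 1.72 times the genome-wide level, against 1.28 and 1.41 on other chromosomes, and its part in the sharing was not tested. On chromosome 13, both Panc327 libraries called 16.1% of the bases of 9 clusters and both SUIT2 libraries 65.1%. Shares called by chromosome are not given here for all BxPC3 clusters. Whether those of chromosomes 13 and 19 are particular to the 500 is therefore not known.

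**Figure D5:**
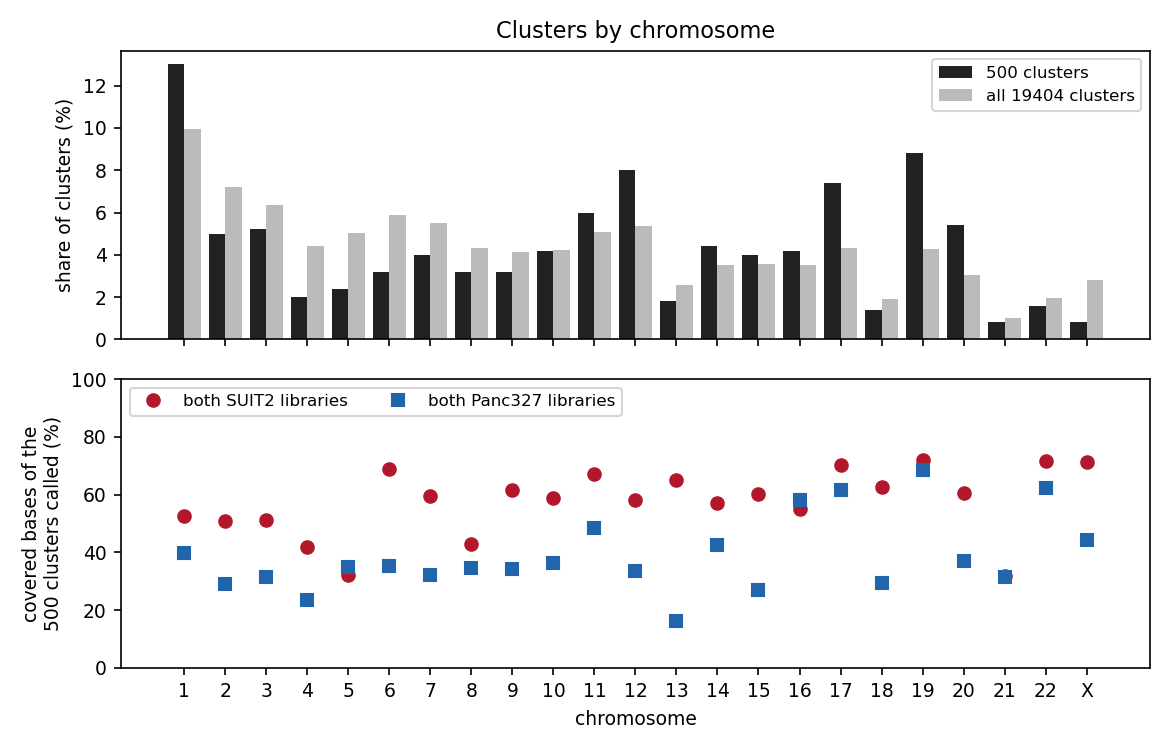
Share in percent of the 500 BxPC3 clusters and of all 19404 clusters on each chromosome (top), and the percent of the covered bases of the 500 called in both SUIT2 and in both Panc327 libraries (bottom). Chromosomes 1, 11, 12, 14, 15, 16, 17, 19 and 20 hold a larger share of the 500 than of all clusters, and the Panc327 share is highest on chromosome 19, at 68.6%, and lowest on chromosome 13, at 16.1%.

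Of the 500, 117, or 23.4%, lay at most 100 kb from another of them, in 53 runs, and 383 did not. The longest had 4 clusters. One, on chromosome 19 from 1016569 to 1286495, had 70895 covered bases, of which SUIT2 called 88.4% and Panc327 60.7%. The other, on chromosome 12 from 46758861 to 47072873, had 59846 covered bases, of which SUIT2 called 29.99% and Panc327 9.11%.

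The local background under the peaks, as the deposited fold and p imply it, was raised in part of the clusters. It was at least 1.5 times the genome-wide level, as the mean of both BxPC3 libraries, in 103 of the 500, 20.6%, against 27.6% of all clusters. All 27 clusters on chromosome 20 were among the 103, and the median there was 1.81 times. The part of the background in the sharing was not tested. The 103 had 61.2% of their bases called in SUIT2 and 36.4% in Panc327, and the other 397 had 58.8 and 43.4%. Across the 500, covered bases and background had a Spearman's rho of 0.0112 and 0.0367 in replicates 1 and 2, as a description over clusters of the same libraries.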

How the data were processed

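H3K27ac ChIP-seq of untreated BxPC3, SUIT2 and Panc327 cells was used, 2 libraries a line. The tools named in the submitters' processing notes are MACS2, Bowtie 1.1.1 and bcl2fastq 1.8.4, and the build is hg19. For MACS2, version and settings are not given in the sources used here. The authors deposited 1 peak list per library, so peaks were called per library. The deposited score column was not used. The deposited fold is the authors' ratio of pile-up to background, and the deposited −log10 p-values and −log10 q-values are the peak caller's; the lowest −log10 p in any list was 10.0. The deposited summit column placed each peak's highest point. Peaks off chromosomes 1 to 22 and X, at most 3 per list, were dropped.

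Both BxPC3 lists were intersected and joined as described above. Bases shared with another list were counted, at a minimum of 1 bp. Pile-up and background were solved from fold and p, within 0.001 of the −log10 p, with the BxPC3 pile-ups at fitted scales of 0.752 and 0.652. The steps were tested on simulated data and against bedtools 2.31.1. Scripts ran in Python 3.11.15 with scipy 1.17.1, pandas 2.3.3 and numpy 2.4.6, and plots were drawn with matplotlib 3.10.9. The clusters, comparisons and thresholds were chosen with earlier results of these data known. Clusters named were the 15 largest, up to 10 called in neither other line, the 10 most called in all 4 libraries, up to 5 each called in 1 other line alone, the 5 of most pieces, the 5 largest of 1 piece, and 2 on each side of the limit. Clusters in runs were chosen after their values were seen. Planned gene lists and motifs need hg19 gene positions and sequence and were not run; the reference tables at hand are on another build and were not used.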

Additional observations from a re-analysis of the deposited data

How the results depend on the processing

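Of 106 values from alternatives, 61 kept their call. A share or length kept it when it changed by less than the SD of 2 libraries. A count kept it when it changed by at most 1.5 times, and the difference between lines when its sign held. The SD was 0.904 points for the SUIT2 share and 10.6 points for the Panc327 share. In the top 250 and top 1000, counts of clusters, the share held and the smallest length move with the size of the set by construction. For the rest that moved, the cause was not tested. The share of covered bases called in SUIT2, 59.3%, was 60.9% with pieces joined within 5 kb, 62.2% within 25 kb, 58.1% when ranked by span, 65.8% when ranked by fold-weighted bases and 62.4% with a call in either SUIT2 library, and 55.2 to 61.5% when 1 library was left out. The Panc327 share, 42.0%, was 65.6% with a call in either Panc327 library and 38.7 to 61.3% when 1 library was left out. Within its wider SD, and so counted as unmoved, it was 40.3% at 5 kb, 45.6% at 25 kb, 42.1% by span and 47.2% by fold-weighted bases. Clusters with at least 50% in SUIT2 (317) numbered 163 in the top 250 and 640 in the top 1000. For Panc327 (210) they numbered 93 and 405, 180 to 352 when 1 library was left out, and 369 with a call in either Panc327 library. Clusters called in neither line (10) numbered 16 at 5 kb and by span, 6 by fold-weighted bases and in the top 250, 40 in the top 1000, 5 with a call in either Panc327 library, and 5 to 13 when 1 library was left out. The share of both-called bases held, 15.9%, was 11.7% at 5 kb, 22.1% at 25 kb, 14.0% by span, 14.6% by fold-weighted bases, 16.02% with 27776 peaks from every list, 9.80% in the top 250, 24.8% in the top 1000 and 15.5 to 15.7% when 1 library was left out. The smallest covered length, 9965 bp, was 7495 at 5 kb, 12947 at 25 kb, 1834 by span, 4516 by fold-weighted bases, 12877 in the top 250, 7123 in the top 1000 and 10391 to 11488 when 1 library was left out. Leaving out clusters with a BxPC3 background of at least 1.5 times, an alternative chosen after seeing the data, gave a share held of 20.2% and a smallest length of 8949 bp. That share is of the bases of the clusters left, whereas 15.9% is of all both-called bases, so the 2 are not like for like. A −log10 q of at least 20, the same number of peaks from every list and leaving out raised background each gave 15 clusters called in neither line, at the edge of the 1.5 times counted as unmoved. The SUIT2 minus Panc327 difference of 7.04 points ran from -0.435, without Panc327 replicate 1, to 14.5. With the replicate block it was 7.04 (13.9 and 0.204 within replicates 1 and 2), a value with no test at 2 pairs. Planned gene lists, their 10 kb alternative and motifs were not run, for want of hg19 positions and sequence. Depth can be judged only from values deposited for peaks, so bases near the calling threshold limit every share.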
